A study of Mus musculus with 2 samples.

Results

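The 9 genes described here encode transcription factors of the trophoblast, the lineage that forms the outer cells of the blastocyst and later the placenta. They were chosen by name, as Cdx2, Elf5, Tead4, Tfap2c, Ets2, Gcm1, Dlx3, Esx1 and Tfap2a, and all 9 of them were found among the 24354 genes with deposited values. Poly(A) RNA from differentiating mouse embryonic stem cells (ESCs) was sequenced in 2 libraries. One came from control cells (Diff-CONT) and one from inducible Ino80 knockout cells (Diff-iKO), so that no difference has a replicate check. Both lines were derived from blastocysts homozygous for a conditional Ino80 allele according to the methods of the study, although the label of the control gives its genotype as WT. CreER, expressed from the ROSA26 locus and active only once 4-hydroxytamoxifen (4-OHTM) is given, was present in the knockout line only. Both lines spent 2 days in serum medium and formed embryoid bodies, which were attached at day 4. From the following day they received 0.5 µM 4-OHTM in a serum medium with BMP4 for 7 days. The number of independent lines per genotype was not given in the sources used here.

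In the mouse embryo Tead4 acts with Yap1 in the outer cells to switch on Cdx2, and Cdx2, Elf5, Tfap2c and Ets2 hold trophoblast stem cells in their dividing state under FGF4. Gcm1, Dlx3 and Esx1 act later, in the labyrinth, the layer of the placenta where maternal and foetal blood exchange nutrients. ESCs rarely enter the trophoblast lineage because Pou5f1 and Nanog hold Cdx2 low, and BMP4 is one of the signals that can promote it in culture. Several of these factors also have roles outside trophoblast. Cdx2 is active in the posterior embryo and hindgut, Tfap2c in pluripotent and germ cells, Dlx3 in skin, tooth and bone, and Tfap2a in neural crest and surface ectoderm. Tfap2a was therefore placed in neither the stem-state nor the differentiated group.

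The values are FPKM, fragments per kilobase of transcript and per 1000000 mapped fragments, which are scaled for transcript length and library size. FPKM of single-transcript genes rose in steps of 1 fragment, and these steps gave a depth of 29900000 fragments for Diff-CONT and 22400000 for Diff-iKO. The fragments behind each gene set a 95% interval, Poisson for a level and Clopper-Pearson for a ratio, which takes in counting error but no variation from culture to culture. Ino80 itself was 8.90 FPKM in Diff-CONT and 10.3 FPKM in Diff-iKO. The targeted gene was thus not lower in the knockout library, and FPKM per gene does not resolve the deleted part, so directions below refer to it as the Diff-iKO-labelled library. Genes of pluripotent cells were present in both libraries of these differentiating cells, with Pou5f1 at 60.8 FPKM in Diff-CONT and 247 FPKM in the Diff-iKO-labelled library.

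The trophoblast factors did not move as one group. Tfap2c rose 3.61-fold, Cdx2 fell 5.66-fold and Tfap2a fell 2.29-fold in the Diff-iKO-labelled library, and these 3 genes passed the cut-off of the study, a fold change (FC) of at least 2 with FPKM of at least 2 in at least 1 library. The other 4 genes that reached the FPKM minimum, Ets2, Tead4, Dlx3 and Esx1, stayed within a log2 ratio of -0.26 to 0.03. Elf5 and Gcm1 were below the minimum in both libraries. Over all genes 15.1% of the 12376 that reached the minimum were past the cut-off, 6.73% higher and 8.39% lower. With 7 members at the minimum the count of 3 is too small to be set against that share, and Cdx2 and Tfap2a reached it only through the Diff-CONT library. The same limit applies to each gene below that is past the cut-off with less than 2 FPKM in one library. The lists below were chosen with earlier results known, and their counts are only descriptions beside the shares over all genes. With FPKM of at least 2 asked of both libraries, Tfap2c was the only member past the cut-off, and with a pseudocount of 1 Tfap2a was no longer past it.

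**Figure D1:**
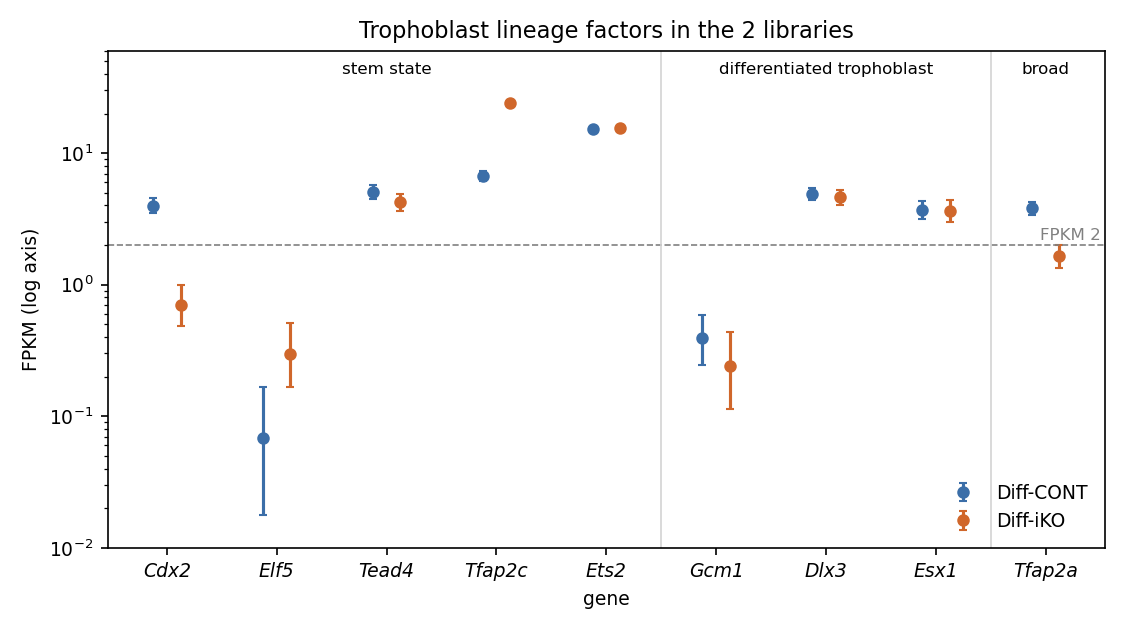
FPKM of the 9 factors in each library, on a log axis, by role. Points are single libraries and bars are 95% Poisson intervals of the fragments behind each value. The intervals of Cdx2, Tfap2c and Tfap2a lie apart between the libraries, those of Ets2, Tead4, Dlx3, Esx1 and Gcm1 overlap, and those of Elf5 meet at 0.168 FPKM.

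The order of the levels differed between the libraries. In Diff-CONT Ets2 was highest with 15.2 FPKM, followed by Tfap2c with 6.68 FPKM. Tead4, Dlx3, Cdx2, Tfap2a and Esx1 followed between 5.06 and 3.72 FPKM, and each neighbour in that order overlapped the next in counting error. Gcm1 with 0.397 FPKM and Elf5 with 0.0687 FPKM were lowest. In the Diff-iKO-labelled library Tfap2c with 24.1 FPKM stood above Ets2 with 15.5 FPKM. Dlx3, Tead4 and Esx1 lay between 4.61 and 3.62 FPKM and overlapped in counting error, above Tfap2a with 1.66 FPKM and Cdx2 with 0.705 FPKM. Ets2 thus lay at percentile 77.1 and 77.7 of all genes in the respective libraries, while Tfap2c moved from percentile 63.6 to 84.8 and Cdx2 from percentile 57.5 to 44.6.

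Cdx2, a caudal-type homeobox gene, is on the minus strand of chromosome 5 (147300805 to 147307270, GRCm38 or mm10 as for all genes below). Its level was 4.00 FPKM in Diff-CONT, from about 248 fragments, and 0.705 FPKM in the Diff-iKO-labelled library, from about 33 fragments. The log2 ratio was -2.50 (interval -3.06 to -1.97), and it was the lowest of the 9 factors. With a pseudocount of 1 it was -1.55, outside that interval. Of the 13145 genes whose mean FPKM was 1 or more, 1.05% had a lower log2 ratio of FPKM + 0.1, which for Cdx2 was -2.35. Its paralog Cdx1, which acts in the posterior embryo and intestine, was 0.405 FPKM in Diff-CONT and 1.68 FPKM in the Diff-iKO-labelled library and stayed below the FPKM minimum. Cdx4, the third gene of the family, was 0.0236 and 0.0632 FPKM. Cdx2 accordingly made up 90.3% of the summed FPKM of the family in Diff-CONT and 28.8% in the Diff-iKO-labelled library.

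The RefSeq promoter of Cdx2, 250 bases before to 50 bases after the start site, is shown because Cdx2 had the greatest fall among the factors and because sites of Pou5f1 and of AP-2 factors can be looked for in it. It covers chr5:147307200-147307499 of GRCm38.p6 and is given 5′ to 3′ along the minus strand. Capitals mark an octamer (ATGCAAAT), the motif of POU factors such as Pou5f1, which begins at position -147 from the start site, and a match to the AP-2 motif (GCCNNNGGC), which begins at position -16.
Cdx2 promoter: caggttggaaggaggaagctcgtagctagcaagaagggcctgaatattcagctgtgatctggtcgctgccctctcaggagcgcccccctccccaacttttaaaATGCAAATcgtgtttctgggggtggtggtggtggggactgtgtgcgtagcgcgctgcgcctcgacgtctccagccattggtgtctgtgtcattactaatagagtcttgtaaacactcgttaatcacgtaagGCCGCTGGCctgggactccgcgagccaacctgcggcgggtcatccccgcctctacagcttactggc
Both motifs were searched on both strands and they do not overlap each other. The octamer was found in 1.74% of the 32851 mouse promoters of this length and the AP-2 motif in 16.6%. RefSeq promoters matched 6 of the 9 genes, with 8 promoters in all, and the Cdx2 promoter was the only one of the 8 with either motif. Whether any factor binds at these matches, or acts through them in these cells, was not tested.

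Cdx2 is also used in the posterior embryo and gut, and 2 lists of genes of those tissues were set beside it. In the list of 7 posterior embryo genes, T, the Brachyury gene of the primitive streak, fell from 7.83 to 1.20 FPKM and Fgf8, a streak growth factor, from 18.3 to 0.807 FPKM. These were the 2 genes of the list that reached the FPKM minimum, and both were past the cut-off, but they reached it only through the Diff-CONT library, where they are high, so no support is drawn from that count. The summed level of the list was 29.7 FPKM in Diff-CONT and 3.73 FPKM in the Diff-iKO-labelled library, where Msgn1 and Hes7 were listed at 0. Tbx6 was 1.22 and 1.17 FPKM and Wnt3a 1.25 and 0.383 FPKM. Of 7 gut endoderm genes, 6 were past the cut-off and lower, of which 1 (Foxa2) had the FPKM minimum in both libraries, and the summed level of the list was 78.8 and 6.45 FPKM. The share lower over all genes at the minimum was 8.39%. Foxa2, an endoderm factor, fell from 13.8 to 4.19 FPKM, and Afp, a yolk sac and foetal liver protein, from 45.9 to 0.422 FPKM. Sox17 (5.36 to 0.317 FPKM), Foxa1 (5.62 to 1.14 FPKM) and Hnf4a (4.33 to 0.0963 FPKM), further endoderm factors, fell too. Pdx1, the pancreatic factor that lies next to Cdx2 on the chromosome, was 0.121 and 0.0404 FPKM. In these bulk cultures fewer cells of a type and less RNA per cell cannot be told apart, and the part of posterior and endodermal cells in the Cdx2 value was not tested.

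Tfap2c, which encodes AP-2 gamma, lies on chromosome 2 from 172549593 to 172558622. Its level was 6.68 FPKM in Diff-CONT, from about 517 fragments, and 24.1 FPKM in the Diff-iKO-labelled library, from about 1396 fragments. The log2 ratio was 1.85 (interval 1.70 to 2.00), and on the scale of FPKM + 0.1, where it was 1.84, 2.39% of the genes of mean FPKM ≥ 1 had a higher one. In the list of 11 pluripotent cell genes, 10 were past the cut-off and higher, 9 of them with the FPKM minimum in both libraries, and the median log2 ratio of FPKM + 0.1 was 2.05. Over all genes at the minimum the share higher was 6.73%. Nanog, a pluripotency homeobox gene, was 19.5 FPKM in Diff-CONT and 81.2 FPKM in the Diff-iKO-labelled library, and Tdgf1, a Nodal co-receptor, 49.8 and 259 FPKM. Dppa5a was 258 and 2115 FPKM and Utf1 27.0 and 101 FPKM, and Zfp42, Klf4, Klf2, Tfcp2l1 and Prdm14 rose as well. Tbx3, the gene that did not, was 11.5 and 10.1 FPKM. The summed level of the list was 446 and 2899 FPKM, and none of its genes was listed at 0. Of 7 germ cell genes, Dppa3 rose from 10.2 to 46.1 FPKM and Ddx4, an RNA helicase of the germ line, from 1.48 to 4.42 FPKM. Prdm1, which starts the germ cell programme, was 2.999 and 3.12 FPKM, Kit was 20.6 and 26.1 FPKM, and Dnd1 was 2.03 and 3.65 FPKM. Below the minimum in both libraries, Nanos3 was 0.552 and 0.734 FPKM and Dazl, an RNA-binding protein of germ cells, 0.269 and 1.89 FPKM, a log2 ratio of 2.82 that was the highest of the list. The summed level of these 7 genes was 38.1 and 86.1 FPKM. The part of pluripotent or germ cells in the Tfap2c value was not tested.

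Tfap2a, which encodes AP-2 alpha, lies on chromosome 13 from 40715302 to 40738376 on the minus strand. It was 3.80 FPKM in Diff-CONT, from about 304 fragments, and 1.66 FPKM in the Diff-iKO-labelled library, from about 99 fragments. The log2 ratio was -1.20 (interval -1.54 to -0.87), an interval that takes in the cut-off of -1. The AP-2 family therefore changed in make-up. Tfap2c held 53.5% of the summed family FPKM in Diff-CONT and 90.0% in the Diff-iKO-labelled library, Tfap2a 30.5% and 6.20%, and Tfap2b, which acts in neural crest and kidney, 14.6% and 3.24%. Tfap2b was 1.82 and 0.867 FPKM, Tfap2e 0.172 and 0.162 FPKM, and Tfap2d was listed at 0 in both libraries. The family sum was 12.5 FPKM in Diff-CONT and 26.8 FPKM in the Diff-iKO-labelled library.

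RefSeq gives Tfap2a a pair of promoters, and the upstream one is shown to set beside that of Cdx2, since both genes fell while the AP-2 paralog rose. It covers chr13:40734871-40735170 of GRCm38.p6 on the minus strand, and capitals mark its single motif match, the homeodomain motif (TAATTA) at position -32, which 5.29% of all promoters hold.
Tfap2a promoter: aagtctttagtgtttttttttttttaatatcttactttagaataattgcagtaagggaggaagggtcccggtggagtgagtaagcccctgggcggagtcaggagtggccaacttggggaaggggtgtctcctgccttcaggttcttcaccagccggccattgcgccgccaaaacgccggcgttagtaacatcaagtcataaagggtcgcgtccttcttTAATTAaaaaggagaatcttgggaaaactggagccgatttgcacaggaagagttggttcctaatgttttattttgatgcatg
The GC content was 46.3% in this promoter and 57.3% in that of Cdx2, against a median of 52.7% over all promoters. The motifs of TEAD factors (GGAATG), ETS factors (CCGGAA) and CDX factors (TTTATNG), and a TATA box (TATAAA), were searched on both strands as well and were not found in either window. They occur in 14.7%, 14.9%, 10.9% and 13.6% of all promoters. Among the 8 promoters of the members, 1 of Elf5 held a TEAD match, at position -173. No motif was found in more than 1 of the 8, and binding at any match was not tested.

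Neural crest and surface ectoderm, where Tfap2a is also used, gave mixed values. Of 10 neural crest genes, Snai2 (10.4 to 3.13 FPKM), Sox9 (6.08 to 2.91 FPKM) and Msx1 (17.3 to 3.01 FPKM) fell past the cut-off, while Foxd3, which is also a pluripotent cell gene, rose from 1.51 to 3.22 FPKM. Msx2 (25.9 and 23.3 FPKM), Erbb3 (15.6 and 25.5 FPKM) and Ednrb (11.2 and 6.55 FPKM) did not reach it. The defining crest factor Sox10 was 0.817 and 0.0706 FPKM. The summed level of the list was 93.2 FPKM in Diff-CONT and 71.2 FPKM in the Diff-iKO-labelled library. Of 10 surface ectoderm genes only Krt14, a basal keratin, passed the cut-off, from 0.927 to 5.59 FPKM. Trp63, the master factor of stratified epithelium, was 1.98 and 0.313 FPKM and so below the minimum. The summed level of that list was 1204 and 1708 FPKM, nearly all of it from Krt18 (522 and 721 FPKM), Krt8 (407 and 575 FPKM), Cdh1 (166 and 268 FPKM) and Epcam (79.0 and 116 FPKM). Krt5 was 0.416 and 1.02 FPKM and, like Trp63, below the minimum, so that sum is not read as a level of surface ectoderm. The part of either cell type in the Tfap2a value was not tested.

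**Figure D2:**
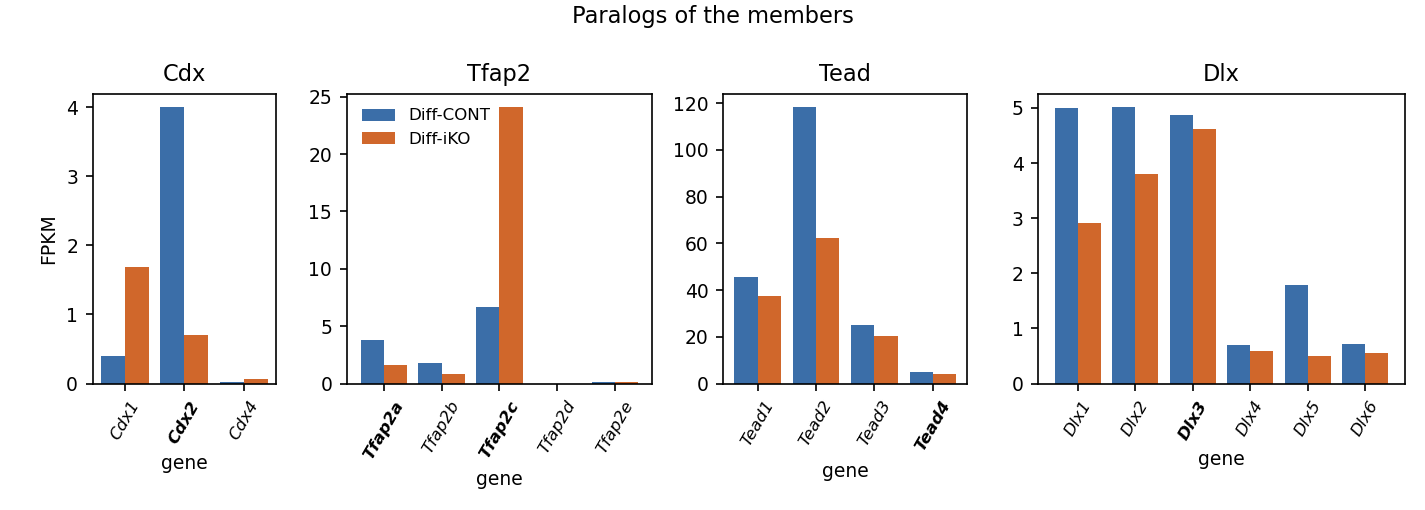
FPKM of the Cdx, Tfap2 (AP-2), Tead and Dlx genes in each library, on linear axes that start at 0, with the members in bold. Bars are single libraries. Cdx2 and Tfap2a are lower and Tfap2c and Cdx1 higher in the Diff-iKO-labelled library, and Tead4 is the lowest of the Tead genes in both libraries.

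Tead4, a TEA-domain factor required for trophectoderm, lies on chromosome 6 from 128224288 to 128300823. It was 5.06 FPKM in Diff-CONT and 4.22 FPKM in the Diff-iKO-labelled library, a log2 ratio of -0.26 whose interval (-0.55 to 0.03) includes 0. It made up 2.61% and 3.39% of the summed Tead FPKM, most of which came from Tead2 (118 and 62.4 FPKM) and Tead1 (45.5 and 37.6 FPKM). Tead3 was 25.2 and 20.3 FPKM, and none of the Tead genes was past the cut-off. The coactivators of Tead factors were Yap1 with 59.1 and 50.9 FPKM and Wwtr1 with 23.8 and 22.7 FPKM. Of the Hippo genes that keep Yap1 out of the nucleus, Amot fell from 125 to 45.7 FPKM, while Lats1 was 11.2 and 8.42 FPKM, Lats2 11.9 and 11.9 FPKM and Nf2 26.0 and 35.3 FPKM. Myogenic genes, which can go with Tead4 in muscle, were near 0, with Myod1 at 0.0599 and 0 FPKM and Myf5 listed at 0 in both libraries. In that list of 6 genes Acta1, the skeletal actin gene, alone passed the cut-off, from 12.6 to 64.9 FPKM, and the summed level was 13.0 and 65.5 FPKM.

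Ets2, an ETS factor that sustains Cdx2 expression in trophoblast stem cells and is also broadly expressed, lies on chromosome 16 from 95702075 to 95721051. Its level was 15.2 FPKM in Diff-CONT, from about 1684 fragments, and 15.5 FPKM in the Diff-iKO-labelled library, from about 1285 fragments. The log2 ratio of 0.03 had the narrowest interval of the 9 factors, from -0.08 to 0.13. Its closest paralog Ets1 was 16.3 and 14.2 FPKM, so that Ets2 made up 48.2% and 52.2% of the pair.

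Elf5, an ETS factor that marks committed trophoblast stem cells, lies on chromosome 2 from 103411688 to 103450989. It was 0.0687 FPKM in Diff-CONT and 0.299 FPKM in the Diff-iKO-labelled library, which rest on about 4 and 14 fragments. The log2 ratio of 2.12 had an interval from 0.55 to 4.29, and with a pseudocount of 1 it was 0.28, so the level was low in both libraries. Elf1, Elf2, Elf3 and Elf4 were above Elf5 in both libraries, while Ehf overlapped Elf5 in counting error in Diff-CONT and was below it in the Diff-iKO-labelled library. Elf3, an epithelial ETS factor, was 9.48 and 18.6 FPKM and did not reach the cut-off, Elf1 was 10.1 and 13.9 FPKM, Elf2 15.2 and 10.01 FPKM, and Elf4 4.89 and 6.14 FPKM. Ehf, the epithelial paralog beside Elf5 on the chromosome, was 0.135 and 0.0531 FPKM. Elf5 made up 0.172% of the summed FPKM of this group in Diff-CONT and 0.610% in the Diff-iKO-labelled library.

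Of the 3 factors of differentiated trophoblast, Dlx3 and Esx1 had ratios near 1 and Gcm1 was too low to be resolved. Dlx3, a distal-less homeobox gene on chromosome 11 from 95120119 to 95125296, was 4.86 FPKM in Diff-CONT and 4.61 FPKM in the Diff-iKO-labelled library, with a log2 ratio of -0.08 (interval -0.32 to 0.16). Esx1, a homeobox gene of the labyrinth on chromosome X from 137115397 to 137122083, was 3.72 and 3.62 FPKM, with a log2 ratio of -0.04 (interval -0.39 to 0.32). Gcm1, which drives the syncytiotrophoblast of the labyrinth and lies on chromosome 9 from 78051924 to 78065624, was 0.397 and 0.241 FPKM. Its log2 ratio of -0.72 rested on about 22 and 10 fragments, and the interval of -1.96 to 0.42 allows a 2-fold fall and no fall. Gcm2, its parathyroid paralog, was listed at 0 in both libraries.

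Esx1 is X-linked and the libraries differed in Xist, which was 0.0639 FPKM in Diff-CONT and 3.59 FPKM in the Diff-iKO-labelled library. Log2 ratios of FPKM + 0.1 had a median of 0.17 over 457 X-linked genes and -0.01 over all 13145 genes of mean FPKM ≥ 1. The part of this difference in the value of Esx1, or of any other gene named here, was not tested. With 1 library per group, the difference in Xist and the genotype cannot be told apart. In the Dlx family, Dlx3 made up 26.9% of the summed FPKM in Diff-CONT and 35.5% in the Diff-iKO-labelled library, since Dlx1 was 5.00 and 2.91 FPKM and Dlx2 5.01 and 3.80 FPKM. Dlx5, a bone and craniofacial factor, was 1.80 and 0.509 FPKM, Dlx6 0.715 and 0.553 FPKM, and Dlx4, the neighbour of Dlx3, 0.693 and 0.600 FPKM. None of these 5 paralogs was past the cut-off. Bone genes moved both ways, with Spp1 (73.6 to 508 FPKM) and Alpl (34.7 to 156 FPKM) higher and Ibsp (3.54 to 0.403 FPKM) lower. Runx2, the factor that defines osteoblasts, was 1.55 and 1.35 FPKM and Bglap was 0.0668 and 0 FPKM, while the summed level of the 7 genes was 115 and 668 FPKM. Alpl and Spp1 are made by cells other than bone cells as well, and the part of bone cells in the Dlx3 value was not tested.

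Set side by side, the 5 stem-state factors had a median log2 ratio of FPKM + 0.1 of 0.03 and ranged from -2.35 for Cdx2 to 1.84 for Tfap2c. The 3 factors of differentiated trophoblast had a median of -0.08 and ranged from -0.54 for Gcm1 to -0.04 for Esx1. The median over all genes of mean FPKM ≥ 1 was -0.01. With 5 and 3 genes in 1 library per group, no test of a difference between the roles was made. With Tfap2a added to the differentiated factors their median was -0.31. The stem-state median is the value of Ets2. It moved to 0.49 when Ets2 was left out and to -0.11 over members of mean FPKM ≥ 1 and to -0.07 when the libraries were scaled to the same sum, so its sign depends on which genes are counted and on the scaling.

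**Figure D3:**
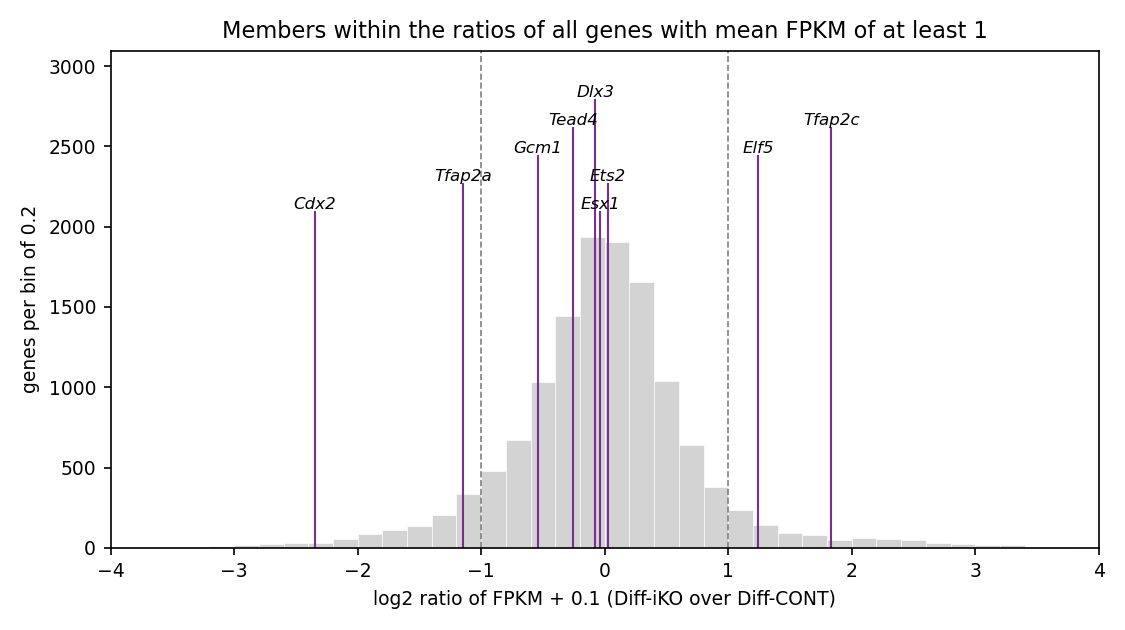
Distribution of the log2 ratio of FPKM + 0.1 over 13145 genes of mean FPKM ≥ 1, in bins of 0.2 between -4 and 4, which leave out 54 genes. Vertical lines mark the 9 factors and dashed lines a 2-fold difference. Dlx3, Esx1, Ets2 and Tead4 lie in the bulk of the genes and Cdx2 and Tfap2c in the tails, while Elf5, although beyond the dashed line, was below the FPKM minimum.

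Further regulators of the stem state were split as well. Of 8 genes, Esrrb, an orphan nuclear receptor shared with ESCs, rose from 7.10 to 42.0 FPKM and Klf5, a Krüppel-like factor shared with them as well, from 9.57 to 20.8 FPKM. Eomes, the T-box factor that partners with Cdx2 and is also used in the primitive streak, fell from 5.25 to 1.48 FPKM. The other 5 genes were not past the cut-off. Gata3, a trophectoderm factor beside Cdx2, was 10.3 and 9.85 FPKM, Sox2 42.7 and 68.2 FPKM and Sall4 27.5 and 28.6 FPKM. Arid3a was 19.5 and 13.7 FPKM, Sox21 2.00 and 2.24 FPKM, and the median log2 ratio over the 8 genes was 0.10.

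Regulators of trophoblast differentiation gave 3 of 12 genes past the cut-off. Hand1, which is needed for giant cells and also for heart and extraembryonic mesoderm, fell from 70.8 to 31.3 FPKM, and Mdfi, an inhibitor of myogenic helix-loop-helix factors, from 25.4 to 9.58 FPKM. Ascl2, the imprinted factor of the ectoplacental cone, was 1.00 FPKM in Diff-CONT and 2.03 FPKM in the Diff-iKO-labelled library, a fold of 2.02 with a log2 interval from 0.41 to 1.58, on both sides of the cut-off of 1. Bhlhe40 with 23.8 and 29.9 FPKM, Junb with 21.0 and 21.8 FPKM, Gata2 with 6.40 and 6.93 FPKM and Cited1, a coactivator of the placenta, with 22.7 and 12.3 FPKM did not reach it. Pparg (1.76 and 3.34 FPKM), Cebpa (1.17 and 2.28 FPKM), Cebpb (3.65 and 5.38 FPKM) and Ovol2 (3.18 and 2.30 FPKM) did not reach it either, and Fosl1 with 0.263 and 1.03 FPKM was below the FPKM minimum. The median over the 12 genes was 0.22.

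Genes that mark trophoblast cells were counted next. Of 18 genes, 15 reached the FPKM minimum, 10 were past the cut-off and higher and 0 were lower, and the median log2 ratio of FPKM + 0.1 over all 18 was 1.16. Of the 10, 6 had the FPKM minimum in both libraries, while Prl3d1, Prl3b1, Tpbpa and Prl2c2 reached it only through the library in which they were higher. Over all genes at the minimum 6.73% were higher and 8.39% lower. The list was chosen with earlier results known, so no support is drawn from its count. Prl3d1 and Prl3b1, placental lactogens of giant cells, were 0.484 and 1.82 FPKM in Diff-CONT and 6.19 and 22.4 FPKM in the Diff-iKO-labelled library. Tpbpa, the marker of the ectoplacental cone and spongiotrophoblast, rose from 1.07 to 5.63 FPKM and Krt7, a keratin of trophoblast and other epithelia, from 39.2 to 86.4 FPKM. Plac1 was 11.6 and 26.5 FPKM and Ada, an adenosine deaminase of the placenta, 2.68 and 6.41 FPKM. Rhox6 (38.4 to 166 FPKM) and Rhox9 (25.3 to 141 FPKM), homeobox genes of placenta and germ cells, rose too. Prl2c2 was 0.221 and 2.06 FPKM but belongs to a family of near-identical copies between which reads can be split.

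The other genes of that list included markers of the labyrinth, 2 of which, Synb and Ctsq, were below the FPKM minimum. Syna, a syncytin of the labyrinth, was 1.94 and 3.15 FPKM, Synb was listed at 0 in both libraries, Gjb2, a connexin of the exchange layer, was 9.57 and 9.61 FPKM, and Ctsq, a sinusoidal giant cell cathepsin, was 0.524 and 1.17 FPKM. Wnt7b of the chorion was 5.58 and 8.91 FPKM, Peg10, an imprinted gene of retroviral origin, 290 and 283 FPKM, and Slc16a3, a monocarboxylate transporter that is also a glycolysis gene, 142 and 77.5 FPKM. Cts7 was near 0 in both libraries, with 0.0510 and 0.0682 FPKM. The summed level of all 18 genes was 585 FPKM in Diff-CONT and 892 FPKM in the Diff-iKO-labelled library.

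The signals upstream of the factors moved in both directions. Fgf4, the growth factor that keeps trophoblast stem cells dividing and that ESCs themselves make, rose from 7.46 to 46.0 FPKM. Its receptor Fgfr2 was 16.3 and 8.83 FPKM and did not reach the cut-off. Bmp4 fell from 43.7 to 12.4 FPKM, while the receptor Bmpr1a was 44.3 and 34.3 FPKM. Of the 10 upstream genes, 1 was past the cut-off and higher, and 2, Bmp4 and Amot, were lower. Genes of mesoderm derivatives, the aim of the culture, were lower past the cut-off in 6 of 10 cases, 5 of them with the FPKM minimum in both libraries, and higher in 1, with a median of -1.04 and a summed level of 1650 and 1823 FPKM. The lower genes were Col3a1, Pdgfra, Tnnt2, Kdr, Hand2 and Tbx20, and the higher one was the endothelial gene Pecam1 (16.2 to 53.9 FPKM). Col3a1 fell from 386 to 187 FPKM, while Col1a1 was 880 and 1199 FPKM and Acta2, a smooth muscle actin gene, 263 and 337 FPKM.

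**Figure D4:**
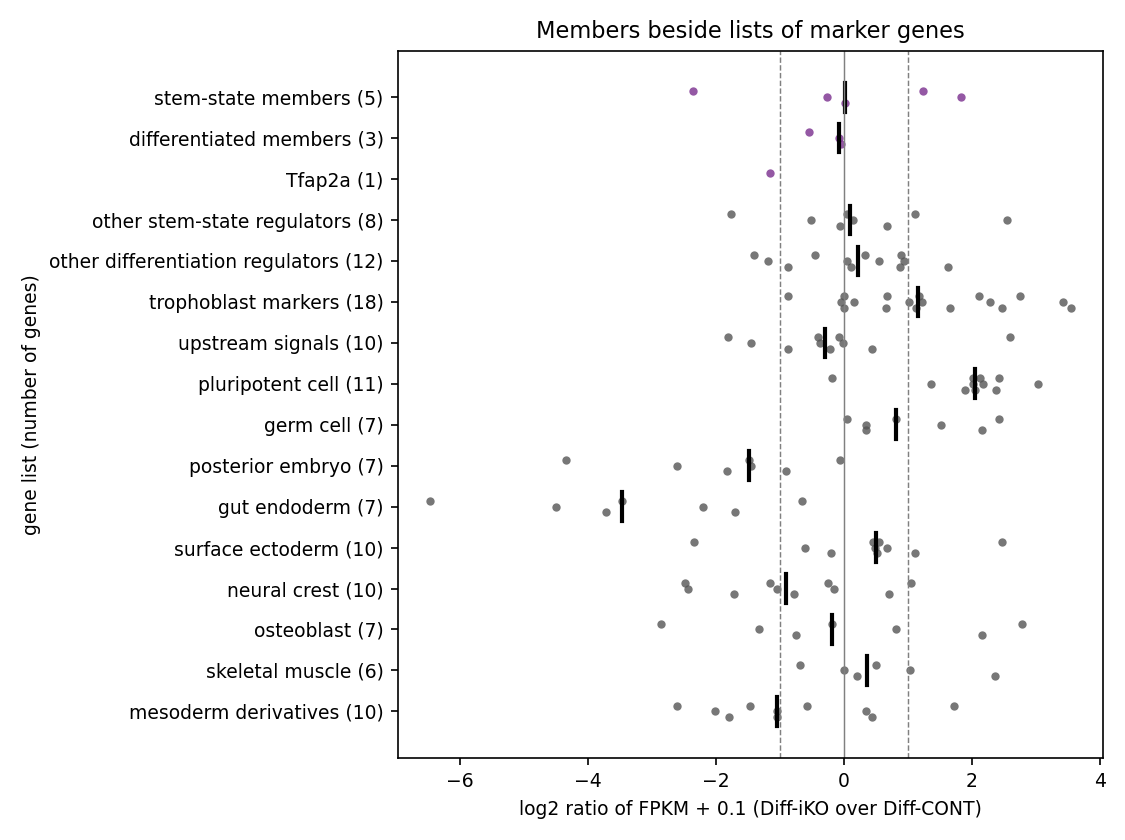
Log2 ratio of FPKM + 0.1 for each gene of the lists, with the number of genes in brackets. Points are genes, black bars are list medians and dashed lines mark a 2-fold difference. The pluripotent list has a median of 2.05, the trophoblast markers 1.16, the posterior list -1.48 and the gut endoderm list -3.47, while the stem-state factors spread from -2.35 to 1.84 about a median of 0.03.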

How the data were processed

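Stranded poly(A) libraries were made from 1 µg of RNA each and sequenced from both ends. FPKM values, 1 column per library, were deposited by the authors. The submitters' processing notes name STAR 2.7.9a, Cuffnorm, Cufflinks 2.2.1 and mm10, and the gene annotation and strand setting are not given in the sources used here. Columns were assigned by name, and 0 other columns of values were present. FC was taken as Diff-iKO over Diff-CONT without a pseudocount, since the methods of the study name none. List medians used FPKM + 0.1. With 1 library per group, no test was made and no p-value is given.

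Depth was fitted from FPKM steps in 13085 genes that have a single RefSeq transcript (1000 nucleotides or longer), after 190 nucleotides were taken off each length for the fragment. With a tolerance of 0.2 fragments, 87.5% of low values in either library were whole, against 40% by chance. The fragments behind a gene were taken from its shortest RefSeq transcript and are approximate for Elf5, Tead4, Tfap2c and Tfap2a, which have more than one. Short or low genes are the least precise. These steps were tested on simulated data. Symbols of 23315 genes matched GENCODE vM21 (GRCm38), the source of gene coordinates, and promoters are from RefSeq (GRCm38.p6).

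The members, roles and lists were chosen with earlier results of these data known. Named genes are the members, their paralogs, Ino80, neighbours on the chromosome and, of each other list, the 4 genes with the highest FPKM and those past the cut-off, apart from some that are not reported here. Other list genes in the text, and Xist, were named after their values were seen. Alternatives were other pseudocounts, filters, fold changes and scalings, and other make-up of the role groups. The public RNA-seq and ChIP-seq data were not analysed here. Scripts ran in Python 3.11.15 with scipy 1.17.1, pandas 2.3.3, matplotlib 3.10.9 and numpy 2.4.6.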

Additional observations from a re-analysis of the deposited data

How the results depend on the processing

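Of 45 alternative values of the 9 single ratios, 44 kept their sign and 42 lay within the counting interval. The exception in sign was Ets2, whose 0.03 became -0.07 with the libraries scaled to the same sum, and the stem-state median, which is its value, went to -0.07 with it. The 3 values outside the interval, all with a pseudocount of 1, were -1.55 for Cdx2, 0.28 for Elf5 and -0.85 for Tfap2a. The members past the cut-off were the same 3 under each scaling, with a pseudocount of 0.1, at FPKM of at least 1 and at FC of at least 1.5. Their number was 1 at FC of at least 4 (Cdx2) and 1 with FPKM of at least 2 in both libraries (Tfap2c), 2 with a pseudocount of 1 (without Tfap2a) and 4 with no filter, which added Elf5. Over all genes, 833 higher and 1038 lower calls became 807 and 1002 with a pseudocount of 0.1, 488 and 569 with the minimum in both libraries, 2794 and 2761 with no filter, 1846 and 2177 at FC of at least 1.5, and 278 and 237 at FC of at least 4. The median of the stem-state factors was 0.49 without Ets2 and -0.11 over members of mean FPKM ≥ 1. Scaling to the same sum moved the median of all genes to -0.10 and the share of higher calls from 44.5% to 36.4%. Summing rows of one symbol could change nothing, since no symbol occurred more than once, and is not among these values. No paired analysis was possible because each group had 1 library, and for the same reason no replicate could be left out.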

Other observations

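The nearest protein-coding genes on either side of each factor were looked up as a further description. Of the 18 neighbours, 11 reached the FPKM minimum and 3 were past the cut-off, too few to be set against the 15.1% of all genes at the minimum. Bmp7, a BMP ligand 309 kb from Tfap2c, was 12.4 FPKM in Diff-CONT and 4.30 FPKM in the library labelled Diff-iKO. Gcnt2, which makes branched I-antigen chains and lies 121 kb from Tfap2a, was 5.73 and 15.5 FPKM. Erg, an endothelial ETS gene 115 kb from Ets2, was 2.03 and 0.149 FPKM, while Ets2 itself was 15.2 and 15.5 FPKM.

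The neighbours at the shortest distances were not past the cut-off, although some of them, Urad, Dlx4 and Pdx1, were below the FPKM minimum and could not pass it. Cat, the catalase gene, lies 2.86 kb from Elf5 and was 39.9 and 32.6 FPKM, and Urad, 7.71 kb from Cdx2, was listed at 0 in both libraries. Around Gcm1, Fbxo9 was 9.63 and 11.0 FPKM and the fatty acid elongase gene Elovl5 57.1 and 50.8 FPKM. Around Tead4, Tulp3 was 21.7 and 17.6 FPKM and Tspan9 67.9 and 64.1 FPKM.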
